A study of Mus musculus with 12 samples.

Results

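The macula densa is a small plaque of tubule cells where the thick ascending limb of each nephron meets its own glomerulus. The response of these cells to 14 days of low salt diet with enalapril was described from all 4 macula densa libraries among the 12 libraries of the series, chosen by their titles: 2 from mice on control diet and 2 from mice on low salt diet plus enalapril. The other 8 libraries held control cells, 4 on each diet. All animals were of the strain C57BL/6 with the genetic model nNosCreERT2-mTmG, a Cre recombinase inducible through the estrogen receptor, driven by the gene of neuronal nitric oxide synthase, together with a membrane reporter that changes from red tdTomato to green eGFP on recombination. Green cells sorted from digested kidney cortex were the macula densa cells, and the most intensely red cells served as control cells. The low salt chow was TD 90228, and enalapril, an inhibitor of angiotensin-converting enzyme, was given at 150 mg/L in the drinking water. The drug and the diet were given together in every treated mouse, so their effects cannot be told apart. The labels give each of the 4 macula densa libraries a different number, shared with 1 control-cell library, but do not say that a number is an animal, so p-values measure only the spread between these libraries.

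Macula densa cells sense the salt that reaches them mainly through the cotransporter NKCC2, encoded by Slc12a1, in their apical membrane. When little salt arrives they make prostaglandin E2 through cyclooxygenase 2, encoded by Ptgs2, which drives renin release from the neighbouring juxtaglomerular cells. They also make nitric oxide through Nos1, and the metalloproteinase Pappa2, which cleaves insulin-like growth factor binding proteins and so frees the growth factor. Low salt intake and inhibition of angiotensin-converting enzyme are known to raise renin and cortical cyclooxygenase 2.

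The macula densa libraries held 8637665 and 11085534 counts on control diet and 4730300 and 5824944 on low salt plus enalapril, so both treated libraries were the shallower ones and depth cannot be told apart from treatment. A total of 3 counts was worth 0.244 to 0.575 CPM (counts scaled to library totals adjusted by the TMM factors of edgeR) in these libraries. Between 53.5% and 58.9% of their counts fell on Gm42418, a long noncoding gene that contains ribosomal RNA sequence. All 4 libraries held the macula densa markers: Nos1 was at 100.4, 111, 232 and 122 CPM and Slc12a1 at 1769, 2026, 1875 and 2012 CPM, with the control libraries first. The control library of replicate 1 stood apart in glomerular RNA. The summed level of 10 endothelial genes was 203 CPM there against 29.7 CPM in the other control library and 19.5 and 13.5 CPM in the treated libraries. For 9 podocyte genes the sums were 185, 36.7, 55.9 and 34.8 CPM. Results that this library can carry are given below with and without it.

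No gene passed an adjusted p of 0.05 for diet in macula densa cells in the edgeR fit of all 12 libraries, which is 0% of 14180 genes tested, and the smallest adjusted p was 0.123. A total of 1594 genes (11.2%) had an unadjusted p under 0.05, of which 781 (5.51%) were higher and 813 (5.73%) lower. In the 4 macula densa libraries fitted alone, 105 of 11321 genes (0.927%) passed, 64 higher (0.565%) and 41 lower (0.362%) on low salt plus enalapril. DESeq2 on all 12 libraries called 93 genes, 63 higher and 30 lower, and limma voom called 4. The groups did not overlap for 2669 higher genes (18.8%) and 3087 lower genes (21.8%), and this held for all 105 genes called in the 4-library fit. The shares over all genes are those to set beside the counts of list members below. The 2 fits gave log2 fold changes that differed by at most 0.074 for these 105 genes. Their standard errors differed more, with a median ratio of 2.30, and the fit of all libraries estimates its spread over the 8 control-cell libraries too. Below, "rose" and "fell" are used only of genes past the threshold in the 4-library fit, whose adjusted p is given as the 4-library adjusted p. Log2 fold changes carry the standard error of the 12-library fit.

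**Figure D1:**
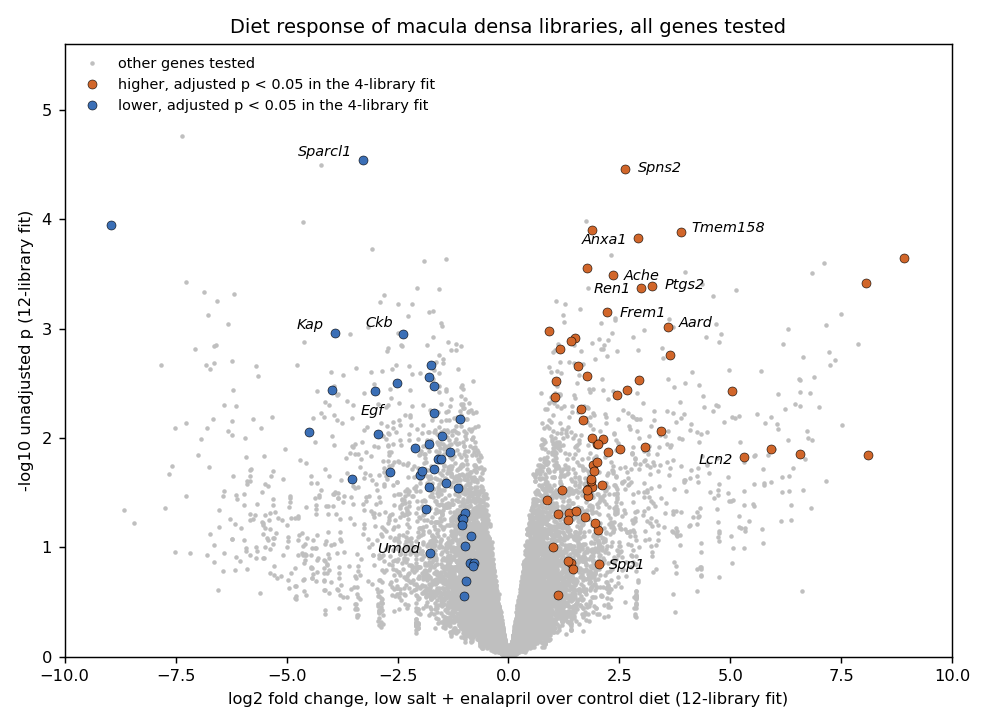
The horizontal axis is the log2 fold change of low salt plus enalapril over control diet in macula densa cells and the vertical axis the -log10 of the unadjusted p, both from the fit of 12 libraries. Each point is 1 of 14180 genes; orange and blue mark the 64 genes that were higher and the 41 that were lower past the threshold in the fit of the 4 macula densa libraries.

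Ptgs2, the inducible cyclooxygenase, was several times higher in both treated libraries. It lies on chromosome 1 from 150100031 to 150108227 (GRCm38, plus strand). Its expression was 15.9 and 14.3 CPM on control diet and 175 and 108 CPM on low salt plus enalapril. Both treated libraries were far above both control libraries, and the lower treated library was still several times the higher control. Ptgs2 rose by 3.23 ± 0.67 on the log2 scale, or 9.4-fold, with an edgeR adjusted p of 0.215 in the fit of all libraries and a 4-library adjusted p of 8.92e-05. Its 4-library call held without each macula densa library in turn. Ptgs2, Aard, Frem1 and Tmem158 were the 4 genes that limma voom called over all 12 libraries, and each was also called in the 4-library fit.

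The sequences just around the start of Ptgs2 and Pappa2, the prostaglandin and protease genes that rose, and of Atf3 and Jun, the immediate early genes with the smallest unadjusted p in the 12-library fit, are shown so that their content can be compared. Each is the RefSeq promoter window on GRCm38.p6, from 250 bases before to 50 bases after the start, 5′ to 3′ on the gene's strand. Capitals mark matches to the short core of the cyclic AMP response element, TGACG, or to the E box, CACGTG, on either strand. The Ptgs2 window is chr1:150099781-150100080 on the plus strand, the Pappa2 window chr1:158958126-158958425 on the minus strand, the Atf3 window chr1:191183284-191183583 on the minus strand and the Jun window chr4:95052173-95052472 on the minus strand.
Ptgs2: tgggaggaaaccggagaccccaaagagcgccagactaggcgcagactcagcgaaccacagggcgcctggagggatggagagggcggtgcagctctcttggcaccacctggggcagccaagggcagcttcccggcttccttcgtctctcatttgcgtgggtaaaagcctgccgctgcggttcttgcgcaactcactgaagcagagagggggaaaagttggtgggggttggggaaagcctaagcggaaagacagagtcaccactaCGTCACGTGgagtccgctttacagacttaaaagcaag
Pappa2: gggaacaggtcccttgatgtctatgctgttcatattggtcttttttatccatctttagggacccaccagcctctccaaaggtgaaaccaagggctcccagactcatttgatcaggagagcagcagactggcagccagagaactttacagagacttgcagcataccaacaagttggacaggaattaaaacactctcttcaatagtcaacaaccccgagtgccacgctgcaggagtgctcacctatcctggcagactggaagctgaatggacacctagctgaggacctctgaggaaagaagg
Atf3: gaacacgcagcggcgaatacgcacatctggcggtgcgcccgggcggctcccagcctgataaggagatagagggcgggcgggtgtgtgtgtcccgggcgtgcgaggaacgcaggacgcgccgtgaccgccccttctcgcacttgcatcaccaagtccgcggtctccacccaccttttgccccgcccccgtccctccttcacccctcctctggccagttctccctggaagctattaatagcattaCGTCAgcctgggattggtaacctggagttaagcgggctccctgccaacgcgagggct
Jun: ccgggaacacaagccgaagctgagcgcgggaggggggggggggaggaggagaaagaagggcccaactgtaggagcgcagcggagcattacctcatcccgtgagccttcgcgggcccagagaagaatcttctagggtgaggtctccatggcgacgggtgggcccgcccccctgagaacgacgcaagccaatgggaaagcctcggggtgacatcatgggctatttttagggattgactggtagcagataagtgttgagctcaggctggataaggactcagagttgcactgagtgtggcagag
In Ptgs2 the short core, read on the opposite strand from base 264 of the window, overlaps an E box that starts at base 267. The Atf3 window holds the short core alone, from base 244. The short core was present in 20.8% and the E box in 7.15% of 32851 RefSeq windows of the same length. The full element TGACGTCA (1.79% of windows), the TATA box TATAAA (13.6%) and the CArG box (1.63%) had no match in these 4 windows, and Pappa2 and Jun had no match to any of the 5 motifs. The Pappa2 window sits at a RefSeq start inside the gene interval of the counted annotation, which runs from 158711727 to 158980490.

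Of 15 measured genes of the prostaglandin pathway, 8 were higher and 7 lower on low salt plus enalapril, with a median log2 fold change of 0.34 against -0.02 over all genes tested. Of the 13 that entered the 4-library fit, 2 rose, Ptgs2 and Ptges, and 0 fell. Ptges, the inducible prostaglandin E synthase that acts after cyclooxygenase, measured 4.1 and 4.32 CPM in the control libraries and 11.3 and 16.6 CPM in the treated ones. Its log2 fold change was 1.72 ± 0.81 with a 4-library adjusted p of 0.0459, and the call was lost without any 1 of 3 libraries, with an adjusted p of up to 0.197 without treated replicate 2, and with scaling by library totals (0.0632). Pla2g4a, the cytosolic phospholipase that releases arachidonic acid, measured 21.4 and 23.8 CPM on control diet and 42.5 and 31.8 CPM on low salt plus enalapril. The groups of Pla2g4a did not overlap, and its 4-library adjusted p was 0.23. The constitutive cyclooxygenase gene Ptgs1 was low in every library, at 2.67 and 2.2 CPM and 2.68 and 3.44 CPM, with a log2 fold change of 0.34 ± 0.50. The other E synthase genes, Ptges2 and Ptges3, had log2 fold changes of -0.50 and -0.02. Among receptors, Ptger4, the EP4 receptor for prostaglandin E2, measured 2.46 and 3.42 CPM and then 7.47 and 5.74 CPM. Ptger3, the EP3 receptor, went the other way at 49.4 and 42.7 and then 21.6 and 39.7 CPM, and neither passed in the 4-library fit (adjusted p = 0.383 and 0.455). The prostaglandin transporter Slco2a1, which carries prostaglandins into cells, measured 9.95 and 3.75 CPM on control diet and 1.72 and 0.984 CPM on treatment, also short of the threshold at 0.162. Slco2a1 is also an endothelial gene, and the higher of its control values came from the library with the most endothelial RNA. That share was not tested for Slco2a1.

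Nos1, the neuronal nitric oxide synthase whose gene drives the recombinase, did not pass. It measured 100.4 and 111 CPM on control diet and 232 and 122 CPM on low salt plus enalapril. Both treated values lay above both control values, but replicate 2 exceeded the higher control by little. The log2 fold change was 0.74 ± 0.35 with a 4-library adjusted p of 0.265, and it was 0.13 without the treated library of replicate 1. Over the nitric oxide pathway 6 of 17 genes were higher and 11 lower, with a median of -0.43, and 0 of the 11 in the 4-library fit passed. The neuronal adaptor Nos1ap and the dynein light chain Dynll1, which binds Nos1 protein, had log2 fold changes of -0.40 and -0.43. The argininosuccinate enzymes Ass1 and Asl, which recycle citrulline to arginine, stood at -0.48 and -0.77. Endothelial Nos3 had 0 counts in both treated libraries and 4.51 and 0.815 CPM in the control libraries.

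Pappa2 measured 228 and 231 CPM on control diet and 774 and 383 CPM on low salt plus enalapril. The control libraries were nearly equal, and both treated libraries were above them, but they differed from each other by more than the lower one differed from the controls. Pappa2 rose by 1.33 ± 0.63 on the log2 scale (2.52-fold, 4-library adjusted p = 0.0381). Without the treated library of replicate 1 its log2 fold change was 0.67 and its 4-library adjusted p 0.0887. The call on Pappa2 was also lost with DESeq2 on the 4 libraries (adjusted p = 0.183) and with scaling by library totals (edgeR adjusted p = 0.0718). Igfbp4, which binds insulin-like growth factors, rose from 14.4 and 13.2 CPM to 40.6 and 30.7 CPM (log2 1.37 ± 0.62, 4-library adjusted p = 0.0216), and that p was 0.0648 without the same library. Igfbp5, a binding protein that Pappa2 cleaves, fell from 164 and 39.6 CPM to 9.96 and 7.71 CPM, a log2 fold change of -3.53 ± 1.37 (4-library adjusted p = 0.00695). The control libraries were far apart for Igfbp5, the higher one being replicate 1, and without that library its log2 fold change was -2.21, against -4.30 without control replicate 2. The 4-library call on Igfbp5 was lost without treated replicate 2 (adjusted p = 0.0699). Stc1, a secreted inhibitor of pappalysins, measured 0.103 and 0 CPM on control diet and 1.34 and 2.79 CPM on treatment, with a 4-library adjusted p of 0.162. Pappa, the related metalloproteinase, measured 55.2 and 56.7 CPM and 59.8 and 51 CPM, so its groups overlapped. The receptor Igf1r had a log2 fold change of 0.18 ± 0.27, and the insulin receptor substrate Irs2 one of 0.89 ± 0.41 with groups that did not overlap. Over the axis, 7 of 13 measured genes were higher and 6 lower, with a median of 0.10, and in the 4-library fit 2 of 11 rose and 1 fell.

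**Figure D2:**
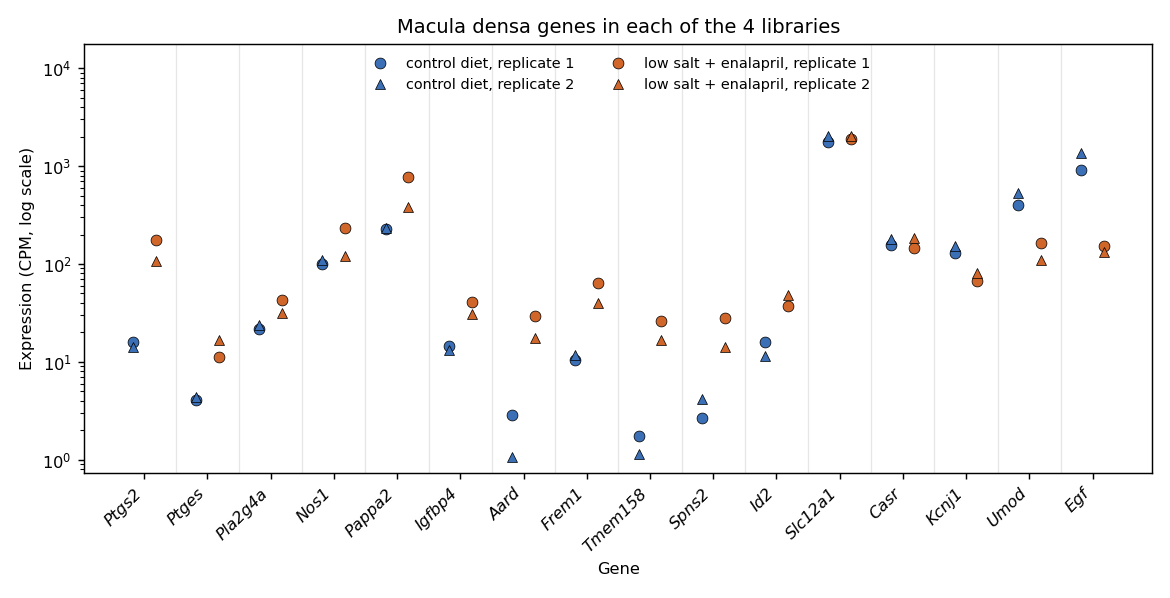
Expression in CPM on a log axis for 16 genes in each of the 4 macula densa libraries; blue is control diet, orange low salt plus enalapril, circles replicate 1 and triangles replicate 2. Ptgs2 goes from 15.9 and 14.3 CPM to 175 and 108 CPM and Egf from 916 and 1365 CPM to 152 and 134 CPM, while Slc12a1 stays between 1769 and 2026 CPM.

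Among 12 genes listed as secreted and surface factors of macula densa cells, 9 were higher and 3 lower. The groups did not overlap for any of them, against 18.8% (higher) and 21.8% (lower) of all genes tested. The list was chosen with earlier results of these data known, and its member Mcub is mitochondrial rather than secreted or at the surface. The median was 1.09, and 3 rose in the 4-library fit: Frem1, Mcub and Sema3c. Frem1, an extracellular matrix protein of basement membranes, rose from 10.5 and 11.7 CPM to 64 and 40.2 CPM (log2 2.23 ± 0.50, 4-library adjusted p = 0.00124). Mcub, a subunit that restrains the mitochondrial calcium uniporter, rose from 7.59 and 7.17 to 28.4 and 26.4 CPM (log2 1.89 ± 0.62, 4-library adjusted p = 0.00377). Both pairs of Mcub libraries were nearly equal within a diet. The secreted guidance cue Sema3c rose from 23.3 and 21 CPM to 54.8 and 57.6 CPM (4-library adjusted p = 0.00825). Ccn1, a matricellular protein, measured 1.64 and 0.57 CPM and 3.45 and 6.23 CPM, and the chemokine Cxcl14 had 0 counts in both control libraries and 2.49 and 1.8 CPM in the treated ones. Against a floor of 3 counts, averaged over the 2 control libraries, Cxcl14 was at least 7.78-fold higher. Neither Ccn1 nor Cxcl14 passed in the 4-library fit (adjusted p = 0.271 and 0.099). The members below their control values were the chemokine Cxcl12 (9.85 and 4.89 CPM, then 1.92 and 2.62 CPM), the fatty acid binding protein Fabp3 and the growth factor Fgf9, with log2 fold changes of -1.68, -2.41 and -1.12. Avpr1a, the vasopressin V1a receptor, measured 33 and 40.3 CPM and 19.3 and 15.1 CPM, with a 4-library adjusted p of 0.0759.

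Outside the lists, the naming rule gave the genes with the smallest p and the largest changes. Tmem158, a Ras-induced membrane protein, had 1.74 and 1.14 CPM on control diet and 25.9 and 16.9 CPM on low salt plus enalapril. It rose by 3.89 ± 0.71 on the log2 scale (4-library adjusted p = 0.0003). Aard, a small alanine- and arginine-rich protein, rose from 2.87 and 1.06 to 29.3 and 17.6 CPM (log2 3.58 ± 0.62, 4-library adjusted p = 0.00174) and had 0 counts in the control cells on both diets. The log2 fold change of Aard was 4.40 without control replicate 1 and 2.94 without control replicate 2. Spns2, the exporter of sphingosine 1-phosphate, had an unadjusted p of 3.47e-05, the smallest among the higher genes that the rule named. Spns2 measured 2.67 and 4.15 CPM on control diet and 28.4 and 14.3 CPM on treatment, a 6.18-fold rise with a 4-library adjusted p of 0.00695. Its log2 fold change was 2.63, and 1.99 without treated replicate 1. Ache, acetylcholinesterase, rose from 2.77 and 3.5 to 16.5 and 15.7 CPM (log2 2.35 ± 0.48, 4-library adjusted p = 0.00592). The cell adhesion molecule Alcam rose from 6.67 and 3.83 CPM to 19.9 and 15.9 CPM, with a 4-library adjusted p of 0.0356 that was 0.14 without control replicate 2 and 0.0829 without treated replicate 1. Kif23, a kinesin of cytokinesis, rose from 0.923 and 1.22 CPM to 10.9 and 12.8 CPM (4-library adjusted p = 0.00285). The ubiquitin ligase gene March5 rose from 2.77 and 4.07 to 13.4 and 12 CPM, with a 4-library adjusted p of 0.0399 that was lost without any 1 of 3 libraries, reaching 0.169 without control replicate 1. Rnf139 and Fam76b had unadjusted p-values of 0.000592 and 0.000659 and did not pass. The histone genes Hist1h2bc and H3f3a had log2 fold changes of 1.74 and 1.07, but near-identical copies make their counts uncertain. The unprocessed pseudogene Gm29216 was far apart in the treated libraries, at 13 and 134 CPM, and its call was lost without treated replicate 2 (4-library adjusted p = 0.11).

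Several further genes were singled out after their values were seen, from among the 49 nuclear protein-coding genes that rose. Pth1r, the parathyroid hormone receptor, rose from 92 and 85.5 to 203 and 167 CPM (log2 1.06 ± 0.29, 4-library adjusted p = 0.0188, 0.0529 without treated replicate 1). The transcription factor Etv1 rose from 6.57 and 7.09 CPM to 23.6 and 15.4 CPM (4-library adjusted p = 0.0459), a call lost without any 1 of 3 libraries, with an adjusted p of up to 0.123 without treated replicate 1, and with scaling by library totals (0.0743). Id2, an inhibitor of helix-loop-helix factors, rose from 16.1 and 11.4 CPM to 37 and 47.9 CPM (4-library adjusted p = 0.00894). The organic anion transporter Slco4a1, the proteoglycan Spock2 and the huntingtin-associated protein Hap1 rose with log2 fold changes of 1.76, 2.01 and 1.78. Arhgap36 and the cytokine gene Il1f6 had 0 counts in both control libraries. In the treated libraries Arhgap36 measured 7.66 and 6.07 CPM and Il1f6 2.68 and 5.09 CPM, which against the floor is at least 24.9-fold and at least 14.1-fold higher. With limma voom on the 4 libraries neither was called (adjusted p = 0.116 for Arhgap36 and 0.203 for Il1f6), and Il1f6 was not among the genes tested without treated replicate 2. Of the 105 genes called in the 4-library fit, 19 of the 41 lower ones were mitochondrially encoded. Of the 64 higher ones, 13 were predicted genes over satellite repeats. Some genes were called in every fit that left out 1 of the 4 libraries, though each such fit leaves 1 library in a group. Among genes named so far these were Ptgs2, Tmem158, Aard, Spns2, Ache, Frem1, Mcub, Sema3c, Kif23, Id2, Slco4a1, Spock2, Hap1 and Arhgap36.

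Transcripts of thick ascending limb identity did not move together. Of 16 measured, 7 were higher and 9 lower with a median of -0.08, and 3 of the 15 in the 4-library fit fell: Egf, Umod and Kcnj1. Egf, the epidermal growth factor precursor, fell from 916 and 1365 CPM to 152 and 134 CPM. Every treated library was below every control library by a wide margin, and the log2 fold change was -2.998 ± 0.84 (4-library adjusted p = 6.47e-05). Egf overlaps predicted genes on both strands, and counting is not stated to use strand. Other named genes overlap a gene on the opposite strand, Spns2, March5, Anxa1 and Ache among them, so their counts carry the same limit. Umod, which encodes the urinary protein uromodulin, fell from 399 and 528 CPM to 165 and 109 CPM (log2 -1.76 ± 1.03, 4-library adjusted p = 0.00271). Kcnj1, the apical potassium channel ROMK, fell from 131 and 154 CPM to 66.5 and 80.4 CPM (4-library adjusted p = 0.0485), a call lost without any 1 of 3 libraries, with an adjusted p of up to 0.194 without control replicate 2, and with DESeq2 size factors (0.0533). The calls on Egf and Umod held without each library. Casr, the calcium-sensing receptor, measured 158 and 182 CPM and 147 and 183 CPM, and its groups overlapped. Sostdc1, Tmem72 and Cldn19 had log2 fold changes of 0.07, -0.12 and 0.18.

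Among salt transport genes, Slc12a1 had a log2 fold change of 0.03 ± 0.78 in the fit of all libraries and of 0.05 ± 0.16 in the 4-library fit, and its sign changed with scaling. The sodium pump subunit Atp1b1 had a log2 fold change of 0.30 ± 0.60. Bsnd, the accessory subunit of the basolateral chloride channels, measured 36.4 and 47 CPM and 31 and 22.3 CPM. Wnk1, a kinase that activates the cotransporters through Stk39 and Oxsr1, rose from 334 and 422 CPM to 689 and 690.3 CPM, by 0.87 ± 0.37 on the log2 scale (4-library adjusted p = 0.0426). That p was 0.216 without control replicate 1, the highest of 3 leave-one-out fits in which the call was lost, and 0.0693 with scaling by library totals. Wnk4, Stk39, Oxsr1 and Klhl3 had log2 fold changes of -0.14, -0.11, 0.37 and -0.16. Over the 22 genes, 10 were higher and 12 lower with a median of -0.05, and 1 rose and 1 fell in the 4-library fit. An exchanger and a calcium-binding protein outside this list also rose. Slc4a9, a basolateral anion exchanger known from intercalated cells, rose from 4.41 and 4.81 CPM to 37.9 and 40.7 CPM (log2 3.09 ± 1.05, 4-library adjusted p = 0.000109). S100g, the calcium-binding protein calbindin-D9k, rose from 28.3 and 23.2 CPM to 60.7 and 81 CPM (log2 1.46 ± 0.97, 4-library adjusted p = 0.00748).

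Immediate early genes, which cells transcribe within minutes of many stimuli including dissociation, were higher for 16 of 20 measured and lower for 4, with a median of 0.84. That median was 0.43 without treated replicate 2 and 0.88 without treated replicate 1. The groups did not overlap for 10 of the higher genes, where 18.8% of all genes tested were higher without overlap. In the 4-library fit 1 of 18 rose, Egr1, against 0.565% of all genes in that fit. Egr1 measured 6.57 and 8.96 CPM on control diet and 19.3 and 30.3 CPM on low salt plus enalapril (log2 1.68 ± 0.52, 4-library adjusted p = 0.0259, 0.138 without treated replicate 2). Jun measured 41.2 and 42.9 CPM and 69.9 and 87.8 CPM with a 4-library adjusted p of 0.0646, and Atf3 1.74 and 2.53 CPM and 5.56 and 10.2 CPM. Fos measured 6.46 and 16.3 CPM and 14.4 and 35.1 CPM, so its groups overlapped. Ier2 had a log2 fold change of 1.43 ± 0.42. The same list had a median of 0.71 in the control cells, with 17 of 20 genes higher. Sorting and dissociation were common to all libraries, and their part in these levels was not tested.

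In the MAPK pathway and its feedback genes 11 of 23 were higher and 12 lower (median -0.04), and 0 of 22 passed in the 4-library fit. In the 12-library fit 4 of the 23 had an unadjusted p under 0.05, all of them lower, against 5.73% of all genes tested. The phosphatases Dusp1 and Dusp4, which are transcribed when the pathway is active, had log2 fold changes of 1.13 ± 0.61 and 0.94 ± 0.61 with groups that did not overlap, whereas Spry2 and Spred1 stood at 0.01 and 0.14. The kinase genes Mapk14, which encodes p38, and Map2k6, which encodes its activator, were lower at -1.44 and -1.46 and did not pass. Of 15 Hippo pathway and YAP target genes, 7 were higher and 8 lower (median -0.08), and Ccn1 stood above the rest. The targets Ccn2, Ankrd1 and Amotl2 had log2 fold changes of -1.35, -1.03 and -0.08. Of 12 neuronal differentiation genes, 5 were higher and 7 lower, with a median of -0.37 that was 0.12 without control replicate 1.

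**Figure D3:**
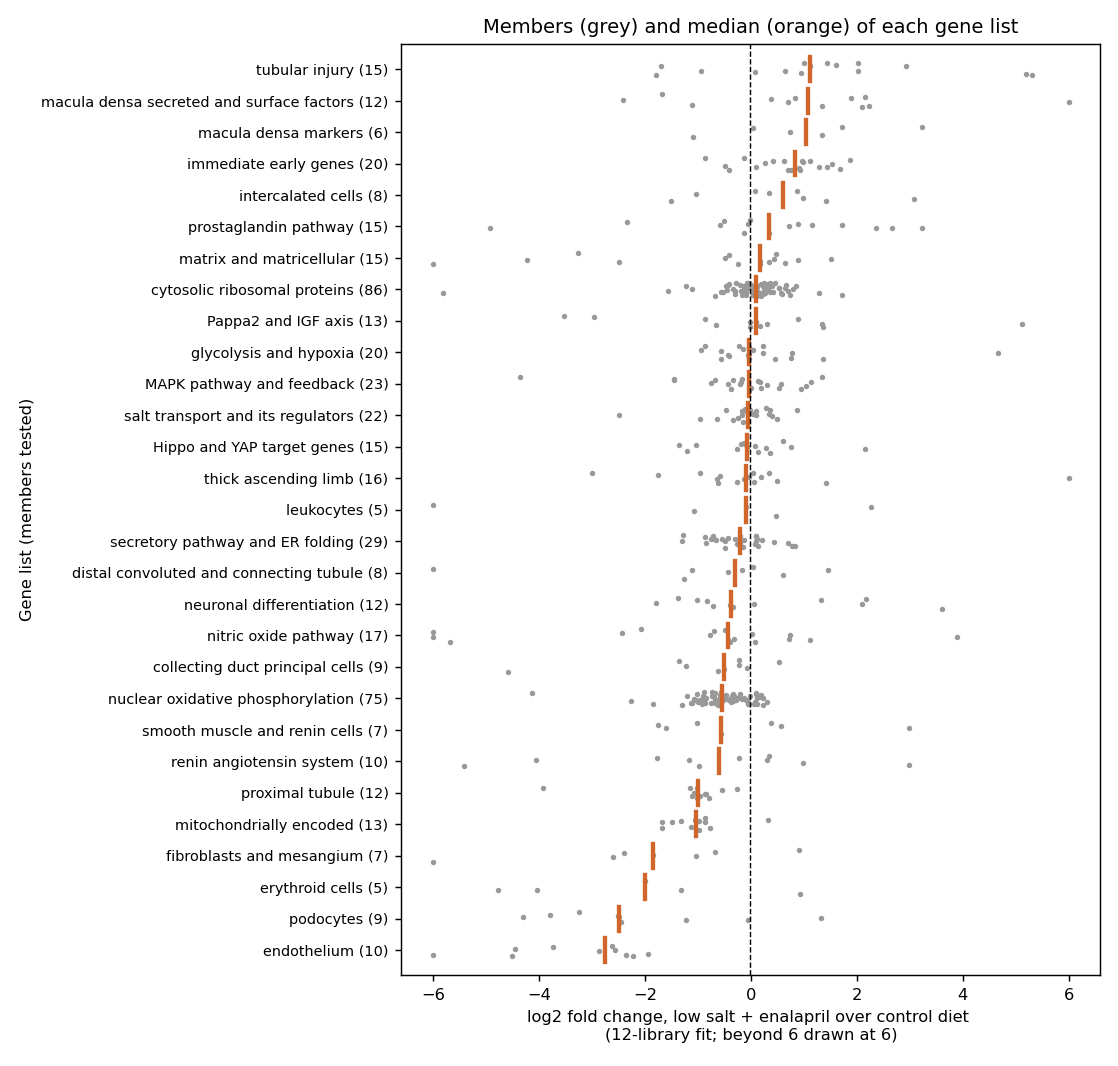
Each grey point is the log2 fold change of 1 measured member of a gene list, low salt plus enalapril over control diet in macula densa cells, and each orange bar is the list's median, with the number of members in parentheses. The dashed line is the median of all genes tested, -0.02; tubular injury genes have the highest median, 1.11, and endothelial genes the lowest, -2.75.

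Mitochondrial transcripts were lower in both treated libraries. They made up 11.7% and 14.1% of all counts on control diet and 7.18% and 6.88% on low salt plus enalapril. Of the 13 protein-coding genes of the mitochondrial genome, 12 were lower with no overlap between groups, and 10 fell in the 4-library fit, with a median log2 fold change of -1.04. mt-Cytb, the cytochrome b of complex III, fell from 1799.6 and 2302 CPM to 893 and 976 CPM (log2 -1.13 ± 0.46, 4-library adjusted p = 0.00894). mt-Atp6, a subunit of the ATP synthase, fell from 2279.7 and 2421 CPM to 1167 and 1223 CPM (log2 -0.98 ± 0.45, 4-library adjusted p = 0.0121). The exception was mt-Nd6, at 139 and 194 CPM and 128 and 287 CPM, the member encoded on the other strand of the mitochondrial genome. Nuclear genes for oxidative phosphorylation leaned the same way by less. Of 75 measured, 63 were lower, with a median of -0.55. The groups did not overlap for 42 of these, where 21.8% of all genes tested were lower without overlap. In the 4-library fit 0 of 73 passed. In the control cells the medians of the 2 lists were -0.71 and -0.30. Genes of cytosolic ribosomal proteins had a median of 0.10 in macula densa cells, with 57 of 86 higher, and 0 of 83 passed. The part of depth and RNA quality in the mitochondrial share was not tested.

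Genes of the secretory pathway and protein folding in the endoplasmic reticulum did not pass either. Of 29, 11 were higher and 18 lower, with a median of -0.21. The groups did not overlap for 11 of the lower genes, where 21.8% of all genes tested were lower without overlap. The chaperones Hsp90b1, Calr and Hspa5 measured 307 and 288, 244 and 241 and 127 and 172 CPM in the control libraries. In the treated libraries they measured 222 and 141, 185 and 103 and 124 and 59.1 CPM in the same order, with 4-library adjusted p-values of 0.212, 0.237 and 0.385. The stress factors Atf4 and Ddit3 had log2 fold changes of -0.13 and -0.65 with groups that overlapped. In glycolysis and hypoxia 8 of 20 genes were higher and 12 lower, with a median of -0.04. The glucose transporter Slc2a1 measured 7.9 and 10.6 CPM and 11.5 and 20.3 CPM, and the vascular growth factor Vegfa 59.4 and 45.5 CPM and 36.8 and 34.3 CPM.

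Of 15 measured genes that tubules raise in injury, 12 were higher and 3 lower, with a median of 1.11. In the 4-library fit 4 of 11 rose, against 0.565% of all genes in that fit. Spp1, osteopontin, rose from 305 and 327 CPM to 1237 and 1339 CPM. Its log2 fold change of 2.03 had a standard error of 1.29 in the fit of all libraries and of 0.17 in the 4-library fit (adjusted p = 0.000109). Clu, clusterin, rose from 50.1 and 66.1 CPM to 260.0 and 211 CPM (4-library adjusted p = 0.000315). Lcn2, lipocalin 2, had 0 and 0.57 CPM on control diet and 11.7 and 13.9 CPM on treatment (4-library adjusted p = 0.00285, but 0.214 with limma voom on these libraries). Its log2 fold change of 5.31 was 4.41 without control replicate 1 and 9.72 without control replicate 2, which leaves no control counts. Anxa1, the calcium- and lipid-binding annexin A1, rose from 2.36 and 0.733 CPM to 9.2 and 13.9 CPM (log2 2.93 ± 0.54, 4-library adjusted p = 0.0263, 0.133 without treated replicate 2). Its log2 fold change was 3.91 without control replicate 1 and 2.20 without control replicate 2. Havcr1, the kidney injury molecule of the proximal tubule, had 0 counts in all 4 libraries. The keratin genes Krt8 and Krt18 measured 23.6 and 21.3 and 7.18 and 7.17 CPM on control diet and 22.6 and 24.9 and 15.9 and 15.1 CPM on treatment, short of the threshold. Vimentin, Vim, was lower at 13.2 and 3.58 and then 2.87 and 1.97 CPM, with its highest value in the control library that held glomerular RNA.

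Matrix genes were mixed, with 8 of 15 higher and 7 lower. Thbs1, thrombospondin 1, rose from 20.8 and 12.2 CPM to 54.8 and 39.9 CPM (4-library adjusted p = 0.0262, but 0.0827 without treated replicate 1 and 0.0589 without control replicate 2). Sparcl1, a matricellular protein, fell from 10.6 and 6.92 CPM to 1.15 and 0.656 CPM, with an unadjusted p of 2.86e-05. Its log2 fold change was -3.27 ± 0.51, and its 4-library adjusted p of 0.0221 became 0.159 without control replicate 1 and 0.0619 without treated replicate 2, and limma voom on the 4 libraries gave an adjusted p of 0.325. Leaving out the control-cell library of replicate 4 on control diet made Sparcl1 the 1 gene past the threshold in the fit of the remaining libraries, at an edgeR adjusted p of 0.0315.

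The naming rule also gave genes that were lower. Kap, an androgen-regulated proximal tubule protein, fell from 42.8 and 63.6 CPM to 6.51 and 0.656 CPM (log2 -3.92 ± 0.92, 4-library adjusted p = 0.00425). Ckb, the brain type creatine kinase, fell from 17.1 and 21.7 CPM to 2.87 and 4.59 CPM (log2 -2.37 ± 0.56, 4-library adjusted p = 0.00695). Both calls held without each library, but the log2 fold change of Kap was -6.38 without treated replicate 1 and -3.08 without treated replicate 2. DESeq2 on the 4 libraries did not call Kap (adjusted p = 0.141). The processed pseudogene Gm15459 fell from 105 and 157 CPM to 10.5 and 6.23 CPM, a count that could hold reads of its parent gene. Fads1, a fatty acid desaturase, and Kyat3, a kynurenine aminotransferase, had log2 fold changes of -1.71 ± 0.41 and -2.07 ± 0.43. Gabbr1, a subunit of the GABA B receptor, and Washc5, a subunit of the WASH complex, stood at -1.52 ± 0.35 and -1.57 ± 0.33. Ankrd26, Hmgxb4, Vps26a, Txlng and Rfwd3 had log2 fold changes from -1.49 (Hmgxb4) to -1.08 (Txlng). None of these 9 passed in the 4-library fit. Adgrf5 and Flt1, both endothelial, had log2 fold changes of -2.71 and -4.51, and -1.43 and -2.91 without control replicate 1. That of Flt1 was -5.34 without control replicate 2 and -5.49 without treated replicate 1. The 4-library call on Flt1 (adjusted p = 0.0271) was lost without any 1 of 3 libraries, with an adjusted p of 0.648 without control replicate 1, and with limma voom (0.614). Singled out after their values were seen, Acat1, a mitochondrial thiolase of ketone body metabolism, and Lpl, lipoprotein lipase, fell from 42 and 45 and from 22.6 and 37.6 CPM to 13.4 and 19.2 and to 11.9 and 9.19 CPM. Their 4-library adjusted p-values were 0.0203 and 0.0442, and reached 0.0539 and 0.328 with a library left out.

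For markers of other cell types, fewer cells of a type and less RNA per cell cannot be told apart in bulk RNA. All 10 endothelial genes were lower, with a median of -2.75 that became -1.04 without control replicate 1. Of 9 podocyte genes 8 were lower, and their median of -2.49 became -0.66. The vascular receptor gene Kdr measured 54.5 and 5.62 CPM on control diet and 4.21 and 3.94 CPM on treatment, and was high in control replicate 1 alone. All 12 proximal tubule genes were lower, with a median of -0.99. That median was -0.43 without treated replicate 1 and -1.88 without treated replicate 2. The groups did not overlap for 5 of these genes, where 21.8% of all genes tested were lower without overlap. Their summed levels, which include Kap, were 153 and 260.2 CPM on control diet and 51.1 and 122 CPM on treatment. In the 4-library fit 1 of these 12 fell, Kap. Of 8 intercalated cell genes, 6 were higher, and 1 of 7 rose, Slc4a9. Their summed levels were 50.2 and 68.3 CPM on control diet and 96.9 and 112 CPM on treatment. These sums include Slc4a9, whose own rise, given above, makes up most of the difference. The pendrin gene Slc26a4 and the proton pump gene Atp6v1g3, which define intercalated cell types, measured 2.36 and 3.58 and 5.23 and 3.58 CPM on control diet and 5.36 and 5.58 and 1.53 and 9.51 CPM on treatment. The part of these cells in the levels of Slc4a9, Igfbp5, Sparcl1 and Kap was not tested.

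**Figure D4:**
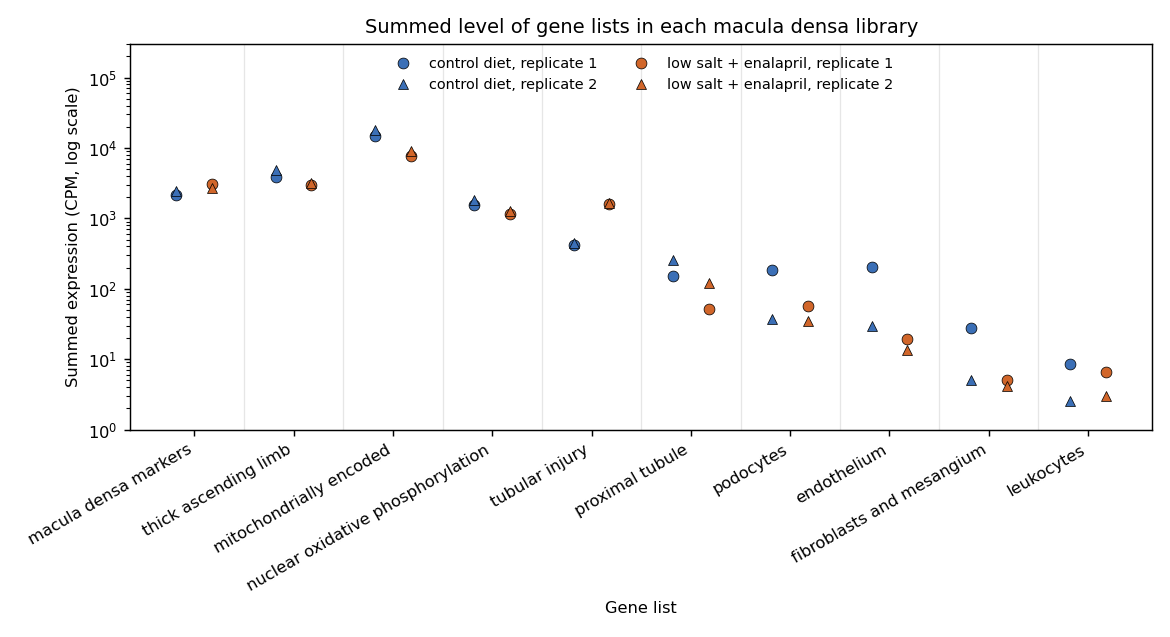
Summed CPM of the members of 10 gene lists on a log axis in each macula densa library; blue is control diet, orange low salt plus enalapril, circles replicate 1 and triangles replicate 2. Podocyte and endothelial sums are high in control replicate 1 alone (185 and 203 CPM), mitochondrial sums are lower and injury sums higher in both treated libraries. Most of the injury sum is Spp1 and Clu.

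Ren1, renin, is made by the juxtaglomerular cells that the macula densa controls. In macula densa libraries it rose from 1.44 and 0.977 CPM to 8.24 and 11 CPM (log2 2.99 ± 0.63, 4-library adjusted p = 0.0155, 0.0708 without treated replicate 2). In the control cells its mean went from 4.52 to 84.3 CPM (SD 1.9 and 39.7, n = 4 each), with a difference of 4.21 on the log2 scale (edgeR adjusted p = 0.00476). The summed level of 7 smooth muscle and renin cell genes, Ren1 among them, was 42.9 and 29.2 CPM in the macula densa control libraries and 24.7 and 21.98 CPM in the treated ones. Whether the Ren1 counts came from the sorted cells or from neighbouring cells was not tested. Of the 10 genes of the renin angiotensin system, 4 were higher and 6 lower. Agtr1a, the angiotensin receptor, and Agt, angiotensinogen, had 0 counts in both treated libraries and measured 0.718 and 0.489 CPM and 0.103 and 0.326 CPM in the control libraries. Since 3 counts were worth 0.575 and 0.492 CPM in the treated libraries, 0 counts there do not show a lower level. Mme and Lnpep, which encode the peptidases neprilysin and insulin-regulated aminopeptidase, had log2 fold changes of 0.34 ± 0.33 and 0.30 ± 0.30.

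The same treatment in the control cells allowed a test of the difference in response. No gene passed for the difference of the 2 diet effects in the edgeR fit (0% of 14180), 997 (7.03%) reached an unadjusted p below 0.05, and the lowest adjusted p was 0.382. The labels give each macula densa library a number that 1 control-cell library of the same diet shares. With that number as a block, in the 8 libraries that share one, edgeR again called 0 genes, and 859 of 13692 had an unadjusted p under 0.05. DESeq2 on all 12 libraries, without that block, called 13 genes, 9 with a higher and 4 with a lower response in macula densa cells, Anxa1, Alcam, Wwc2, Spns2 and Sparcl1 among them. Ptgs2 had a mean of 0.237 CPM in control cells on control diet and 0.81 CPM on treatment, a log2 fold change of 1.52. The difference in its response was 1.71 with an unadjusted p of 0.147, so a larger response in macula densa cells was not shown. Spns2 differed by 2.20 (unadjusted p = 0.000687), Anxa1 by 3.36 (0.000186), Alcam by 2.14 (0.000264) and Sparcl1 by -3.47 (5.39e-05). Their DESeq2 adjusted p-values were 0.0477, 0.00394, 0.0105 and 0.00394, and those of edgeR were 0.532, 0.394, 0.394 and 0.382. Wnk1 had log2 fold changes of 0.87 in macula densa cells and -0.51 in control cells, a difference with an unadjusted p of 0.0102. Frem1 and Ache differed with unadjusted p-values of 0.00879 and 0.00224. Umod had log2 fold changes of -1.76 and 0.64 in the 2 populations (unadjusted p of the difference 0.0786).

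Egf was lower in both populations, with -2.10 in control cells and an unadjusted p for the difference of 0.367. Spp1 and Clu were higher in both, with control-cell log2 fold changes of 4.26 and 3.57. Kap was lower in both and Lcn2 higher in both, with control-cell log2 fold changes of -3.63 and 6.55. The edgeR unadjusted p-values of their differences were 0.822 and 0.627. The injury genes summed to 3390 and 5783 CPM in 2 of the 4 treated control-cell libraries and to 549 and 416 CPM in the others. In the treated macula densa libraries they summed to 1592 and 1650 CPM, most of it from Spp1 and Clu. The control cells were sorted by a gate of their own and had more libraries, so levels in the 2 populations are given for reference.

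**Figure D5:**
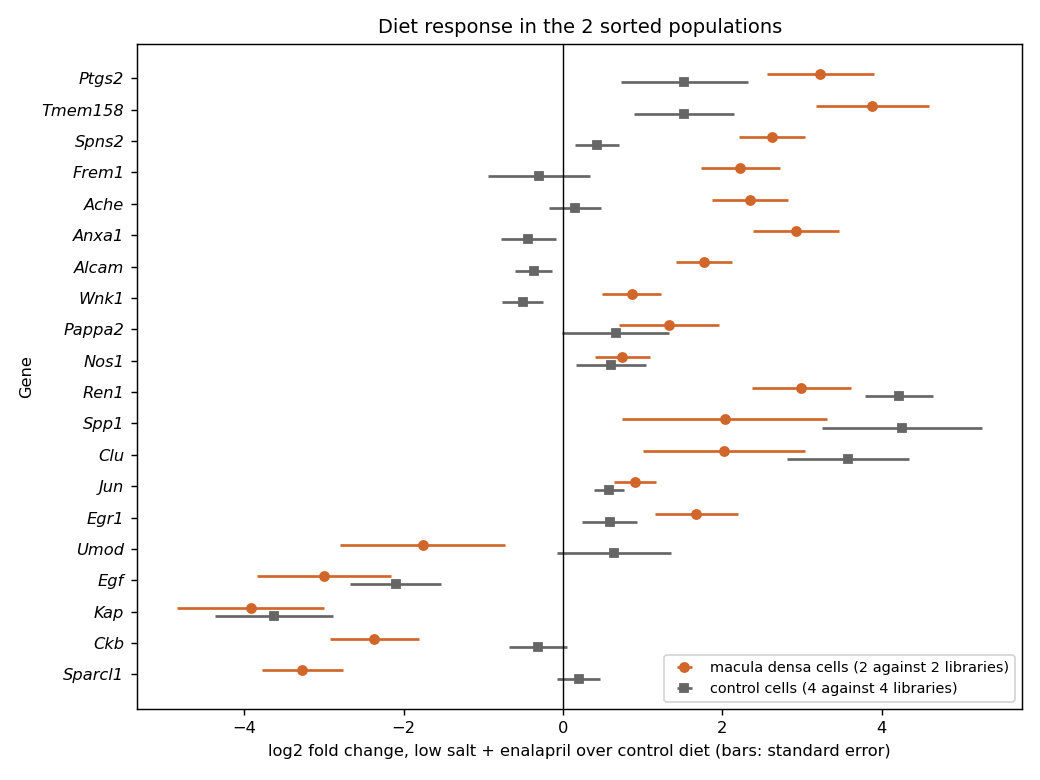
Log2 fold change of low salt plus enalapril over control diet for 20 genes in macula densa cells (orange circles, 2 against 2 libraries) and control cells (grey squares, 4 against 4 libraries), with standard errors of the 12-library fit as bars. Anxa1 and Sparcl1 lie on opposite sides in the 2 populations, and Spp1, Clu and Ren1 lie further right in control cells.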

How the data were processed

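RNA of 4 macula densa and 8 control-cell libraries was sequenced from SMARTer Stranded Total RNA Pico libraries, per the labels' protocols. The table that the authors deposited gives estimated counts for 23378 genes, and 16.1% of its values were not whole. Per the submitters' processing notes, STAR 2.61, Partek and mm10 were used; the counting tool, annotation and strand setting are not given in the sources used here. Expected counts as deposited were rounded to whole numbers. CPM are counts scaled to library totals adjusted by the TMM factors of edgeR. Scaling by library totals alone was an alternative.

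All 12 libraries were fitted with the quasi-likelihood test of edgeR 4.0.16 (R 4.3.3, TMM scaling, filterByExpr minimums of 10 counts per library and 15 in total), with Benjamini-Hochberg adjustment at 0.05. The 4 macula densa libraries were also fitted alone. DESeq2 1.42.0, limma 3.58.1 voom, other scalings and filters, a replicate block and leaving out each library were alternatives. On simulated data with 200 genes changed 4-fold, the 12-library fit recovered 35% of them among 13644 genes, with 1 false call. The 4-library fit recovered 56% among 10766, with 9 false calls. At 8-fold the shares were 72% of 200 among 13718 genes and 75.5% among 10709, with 4 and 5 false calls. Each simulation took its spread from the libraries of its own fit, so it does not test that spread.

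Genes were named where they had a mean of at least 5 CPM, no overlap between groups and were among the 12 smallest unadjusted p-values in a direction, or the 5 largest changes in a direction past the threshold of the 4-library fit, or belonged to a gene list. The members and lists were chosen with earlier results of these data known. Some genes are not reported here.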

Additional observations from a re-analysis of the deposited data

How the results depend on the processing

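In the 12-library fit, where edgeR called 0 genes and 1594 had an unadjusted p under 0.05, DESeq2 called 93, limma voom 4 and the 4 macula densa libraries alone 105. Leaving out 1 library gave 0 to 1 genes, the 1 gene (Sparcl1) without the control-cell library of replicate 4 on control diet. For the difference from control cells, edgeR called 0 and DESeq2 13. In the 4-library fit, with 105 genes, DESeq2 called 168, limma voom 172 and no filter on low counts 375, and leaving out 1 library gave 107 to 181, with 175 without control replicate 2 and 181 without treated replicate 1. Same-numbered macula densa libraries did not deviate together (correlation 0.0559), so the numbers of the titles were not taken as pairs. With the replicate number as a block, 0 genes passed over 12 libraries and 142 in the 4-library fit, which held 104 of the 105. Some values near 0 changed sign. Slc12a1 was -0.021 with library totals, -0.095 without a filter, -0.073 without treated replicate 2 and from -0.11 (without control replicate 1) to 0.050 with 1 library left out. With 1 library left out Casr ranged from -0.26 to 0.035 (without treated replicate 1) and mt-Nd6 from -0.44 (without treated replicate 2) to 0.72. The renin angiotensin median was 0.058 at a mean of 5 CPM, 0.053 in the 4-library fit and 0.010 with its replicate block. The Pappa2 and IGF median was -0.031 without a filter and from -0.12 (without treated replicate 1) to 0.10 with 1 library left out. Without a filter the ribosomal protein median was -0.025. The neuronal and leukocyte medians ranged from -0.54 to 0.12 and from -0.61 to 1.52, both highest without control replicate 1, and the matrix median from -0.49 (without control replicate 2) to 0.44. The causes were not tested. Of the other alternatives for 121 named genes, 2469 kept their direction and side of the threshold and 166 newly passed it. For 29 list medians, 548 moved by less than the spread and 80 by more. Depth limits genes of a few CPM, since 3 counts were worth up to 0.575 CPM.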

Other observations

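Gene groups that were put together after their values were seen are given here as values. Of 16 measured circadian clock genes, 10 were higher and 6 lower in the treated macula densa libraries, with a median log2 fold change of 0.67, and 0.52 in control cells. Arntl, an activator of the clock, measured 9.95 and 11.9 CPM on control diet and 3.45 and 4.76 CPM on treatment. Nr1d2, a repressor of Arntl, measured 7.28 and 6.92 CPM and 18 and 23.9 CPM (edgeR 4-library adjusted p = 0.0262, but 0.0548 without control replicate 2 and 0.114 without treated replicate 2). Dbp, an output factor of the clock, measured 2.46 and 2.28 CPM and 5.36 and 6.73 CPM. The hours at which tissue was taken are not used here, and their part in these levels was not tested.

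All 13 measured predicted genes over satellite repeats were higher in both treated macula densa libraries and passed in the 4-library fit, where 0.565% of all genes passed as higher. Because these genes were put together after their values were seen, their number passing is not a test. Their summed level was 10466 and 13043 CPM on control diet and 44858 and 55878 CPM on treatment. In the control cells the same sum varied widely within a diet, from 6978 to 31320 CPM on control diet and from 8154 to 30522 CPM on treatment. Reads of such repeats can be placed at many positions, so counts of single genes are uncertain. All 22 tested mitochondrial transfer and ribosomal RNAs were lower without overlap, against 21.8% of all genes tested, with a median of -1.73. In the 4-library fit 9 of 21 fell, against 0.362% of all genes in that fit. The fibrinogen chain genes Fga and Fgg rose from 0.308 and 0.0815 and from 0.103 and 0 CPM to 6.51 and 6.56 and to 6.7 and 4.76 CPM, with edgeR 4-library adjusted p-values of 0.0113 and 0.0113, the second 0.0628 without treated replicate 1. With limma voom on the 4 libraries neither was called (adjusted p = 0.322 for Fga and 0.218 for Fgg). Both were also higher in the treated control cells, with a median log2 fold change of 7.43 there and 5.81 in macula densa cells. Fga measured 14.5 and 21 CPM in treated control-cell replicates 1 and 3, and 1.22 and 1.42 CPM in replicates 2 and 4.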
